A study of Mus musculus with 24 samples.

Results

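The interferon-stimulated genes followed here are 46 mouse genes chosen by name, from transcription factors of the interferon response to its antiviral effectors. The choice was made with earlier results of these data known. Each was represented by its brightest probe on a one-colour Agilent array. A gene was tested only if, in some group, a probe of it was well above background on each of the 4 arrays. This left 38 of the 46 genes, among 15058 genes tested in all, and 8 were not tested. The cells were DA1-3B, a Bcr-Abl positive leukaemia line of the mouse whose strain is labelled C3H eOuJ. They had been transfected with plasmids that code for forms of p65/RelA, 1 of the proteins that make up NF-kB. The 6 groups of 4 samples received a void plasmid (VOID), p65 in its full length (WT) or p65 with the substitution D361E. The other groups received the part up to residue 361 (p1-361), the part after it (p363-549), or both of these fragments (p1-361+p363-549, called both fragments below). The treatment protocol gives 362 as the first residue of the C-terminal fragment, which the sample names call p363-549. All 6 groups share the Bcr-Abl oncogene and the transfection itself, and all come from 1 line. The labels give no promoter for the plasmids and no time after transfection, and do not state that samples of 1 group were cultured apart. The p-values therefore measure the spread between these samples, which may be technical.

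Interferons are cytokines that act through receptor-bound JAK kinases. Type I interferon leads to a complex with STAT2 and IRF9 that binds the interferon-stimulated response element (ISRE), and the response to interferon gamma acts through the gamma-activated site (GAS). The genes turned on block viral entry, sense and degrade viral RNA, and tag proteins with the ubiquitin-like ISG15. NF-kB takes part in switching on interferon genes and binds DNA at kB sites, some of which lie in genes that also answer to interferon, such as Irf1 and Cxcl10.

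Levels are log2 processed signal minus the array's own 75th percentile, so that 0 is the level of the 75th percentile spot, and a level of 1 gene is not set against that of another. Changes are differences of group means on this log2 scale with the limma standard error (SE). A gene was called when its Benjamini-Hochberg adjusted p over all 15058 genes was under 0.05. The number of arrays limits the precision. No spot was saturated, and 49.4% to 55.5% of the spots on an array were well above background. Of the 24 arrays, 21 were closest to their own group over the 200 genes that best separated the groups, and 3 were not, all of them replicate 4 of a fragment group. The array labelled p363-549 replicate 4 had a Pearson r of 0.97 across these genes with both fragments and of -0.55 with its own group. The array labelled p1-361 replicate 4 was closest to p363-549, with an r of 0.78 against 0.14 for its own group. The array labelled p1-361+p363-549 replicate 4 was closest to p1-361, with an r of 0.71 against -0.09. Genes are not independent replicates in these correlations. The groups were kept as labelled, and whether the labels of these 3 samples were exchanged was not tested. Counts of calls on the fragments are given with all 24 arrays and without those 3. So are the single values of members printed that changed their call or moved by more than 0.2. Leaving out arrays because they lie far from their group lowers the spread within groups by construction. The Rela probe, which starts at base 2648 of its transcript and may lie outside what the plasmids carry, read 4.38 on average in VOID and 4.74 to 4.87 in the other groups. Against VOID it was called in p1-361 (0.43, limma adjusted p 0.0406), p363-549 (0.49, 0.0161) and both fragments (0.47, 0.00622). In WT (0.40, adjusted p 0.0794) and D361E (0.36, 0.127) it was not called. Of 11 blood cell markers, 8 were well above background on all 4 arrays of every group. Kit, a receptor of blood precursor cells, was not above background on any array. No B cell or fibroblast and epithelial marker was so on all 4 arrays of a group, while 3 of 6 T and NK cell markers, 3 of 5 plasmacytoid dendritic cell markers (Bst2 among the 5), 3 of 5 erythroid markers and 1 of 6 neutrophil markers were so in every group.

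Promoter sequence was set beside the levels because ISRE, GAS and kB motifs are the binding sites named above. Windows from 250 bases before to 50 bases after the start site were taken from RefSeq on GRCm38.p6 and were held for 35 of the 46 members. The ISRE core, spelled as GAAA, any 2 bases and GAAA and searched on both strands, was present in 18 of these 35 members (51.4%) and in 3.99% of 27025 genes with a window. The GAS motif, TTC, any 3 bases and GAA, which reads the same on both strands, was present in 10 members (28.6%) and in 9.55% of all genes. The loose kB motif, GGG, any 5 bases and CC, on both strands, was present in 22 members (62.9%) and in 53.5% of all genes. Overlaps between matches of different motifs numbered 4 among the members. A match is a description of the letters and was not tested as a site. The 250 bases before the start site are shown for 5 of the members on which the results below turn, 5′ to 3′ on the strand of the gene, with matches in capitals. They are shown because Irgm1 was called higher and Ifitm1 and Ifitm2 lower with both fragments, and because Isg15 and Oas1a were called higher there without the 3 arrays.
Isg15, chr4:156200819-156201068, minus strand: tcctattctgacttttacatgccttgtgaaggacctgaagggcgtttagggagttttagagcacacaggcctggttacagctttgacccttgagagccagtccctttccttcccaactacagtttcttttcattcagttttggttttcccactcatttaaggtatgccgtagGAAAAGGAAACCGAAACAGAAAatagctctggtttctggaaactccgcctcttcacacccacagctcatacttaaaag
Oas1a, chr5:120907526-120907775, minus strand: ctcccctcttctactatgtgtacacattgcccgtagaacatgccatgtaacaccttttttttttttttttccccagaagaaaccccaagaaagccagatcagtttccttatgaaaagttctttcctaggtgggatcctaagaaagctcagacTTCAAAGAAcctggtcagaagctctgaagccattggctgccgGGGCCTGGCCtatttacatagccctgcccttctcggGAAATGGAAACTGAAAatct
Irgm1, chr11:48871421-48871670, minus strand: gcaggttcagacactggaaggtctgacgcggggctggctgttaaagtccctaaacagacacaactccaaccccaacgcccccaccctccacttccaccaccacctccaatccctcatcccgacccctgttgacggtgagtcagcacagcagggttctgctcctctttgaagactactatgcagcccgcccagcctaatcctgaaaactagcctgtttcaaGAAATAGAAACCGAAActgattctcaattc
Ifitm1, chr7:140967826-140968075, plus strand: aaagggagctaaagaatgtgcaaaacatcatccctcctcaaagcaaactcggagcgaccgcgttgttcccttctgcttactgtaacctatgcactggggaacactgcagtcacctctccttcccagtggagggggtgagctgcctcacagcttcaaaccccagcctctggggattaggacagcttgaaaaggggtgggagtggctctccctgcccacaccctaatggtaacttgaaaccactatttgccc
Ifitm2, chr7:140955962-140956211, minus strand: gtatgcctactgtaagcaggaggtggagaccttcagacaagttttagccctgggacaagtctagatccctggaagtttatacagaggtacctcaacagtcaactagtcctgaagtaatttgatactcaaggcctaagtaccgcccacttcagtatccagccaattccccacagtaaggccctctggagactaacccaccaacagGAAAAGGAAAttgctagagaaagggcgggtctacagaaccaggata
The Isg15 window held 3 overlapping ISRE cores, which began at -78, -72 and -66, where -1 is the last base before the start site. In Irgm1 the capitals are 2 overlapping ISRE cores that began at -30 and -24. Oas1a held 2 overlapping ISRE cores at -20 and -14, a GAS match at -98 and a kB match at -56. Ifitm2 held 1 ISRE core at -46, while none of the 3 motifs was present in the Ifitm1 window. Other members called higher without the 3 arrays are not shown. Of these, Irf7 (at -58 and -57), Irf9 and Xaf1 held only kB matches, and Irf1 held GAS and kB matches but no ISRE core. The windows of Ddx58, Eif2ak2 and Igtp held an ISRE core. Ifitm3, also called lower with both fragments, is not shown. Its window held ISRE cores at 3 and 20 and a GAS match at 14, all after the start site, and a kB match at -116. No match was recorded for Oas2, Mx2, Parp9, Oasl2 and Ifi27l2a, called with both fragments with all arrays or without the 3. Absence of the letters and absence of a window are not told apart for these genes here. No match says only that these letters are not in this window.

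**Figure D1:**
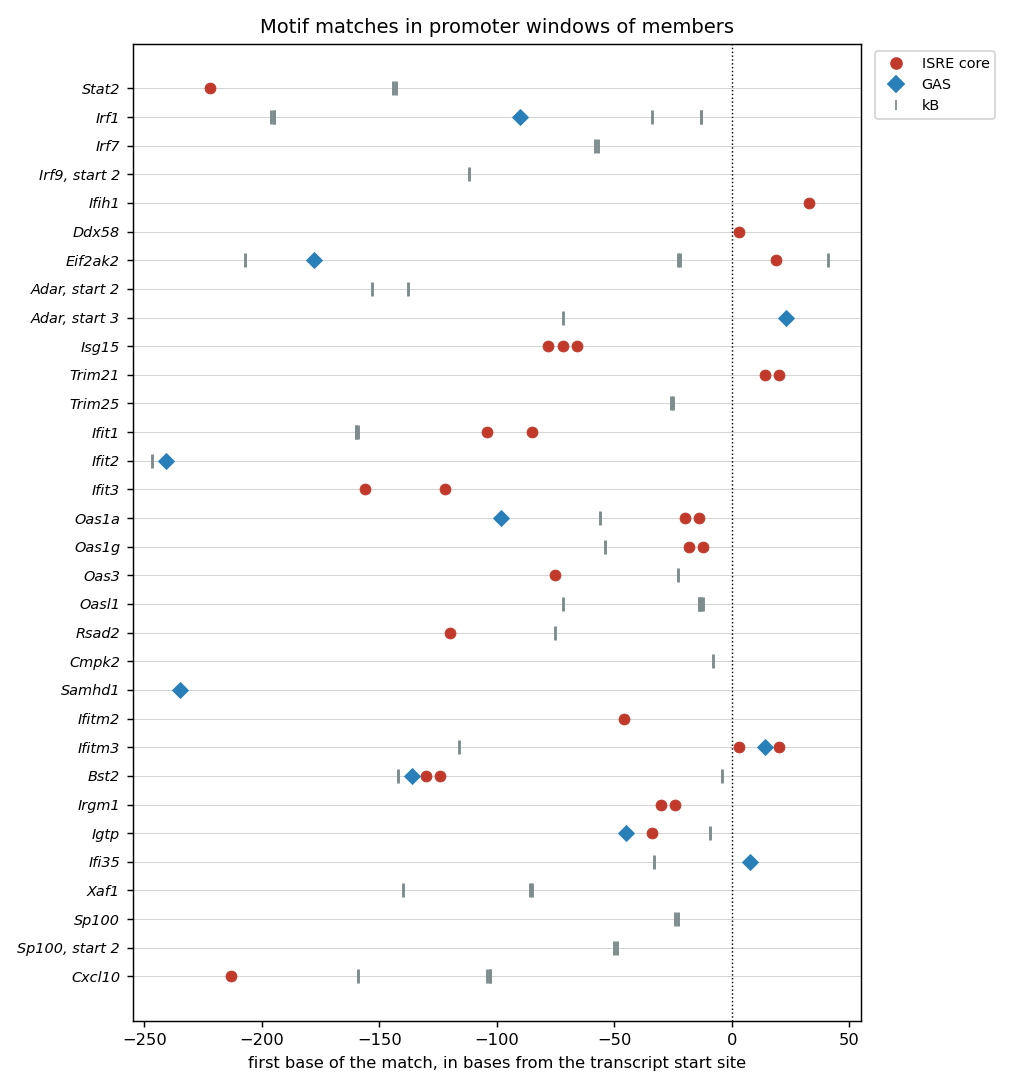
Positions of motif matches in the promoter windows of members that held at least 1 match, with the first base of each match in bases from the transcript start site on the x axis and 1 row per gene and start site. Red circles are ISRE cores, blue diamonds GAS motifs and grey bars kB motifs, and Isg15 holds 3 ISRE cores that overlap.

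Each construct was compared with the void plasmid, and the comparison of both fragments comes first. With both fragments, 4 members rose (Eif2ak2, Oas2, Mx2 and Irgm1) and 3 fell (Ifitm1, Ifitm2 and Ifitm3). That is 18.4% of the 38 tested members, where 4.46% of all genes tested were called. As the members were chosen with earlier results of these data known, such shares are a description and not independent support. The median change of the members was 0.35, with 27 of 38 above 0 (71.1%), and the median of all genes was -0.01, with 49.2% above 0. No overlap between the arrays of both fragments and those of VOID was found for 6 members that were higher (15.8%, against 5.56% of all genes) and for 1 that was lower (2.63%, against 4.55%). For Isg15, which is among the 6, the lowest both-fragment array and the highest VOID array both round to -1.03. Without the 3 arrays 18 members were called, 14 higher and 4 lower, where 9.58% of all genes were called, and the median of the members was 0.43. In RNA from whole cultures, a change in the number of cells that express a gene and a change in RNA per cell cannot be told apart. The summed level of mast cell and basophil markers, 6 genes of which 5 were above background on all 4 VOID arrays, ran from 3.00 to 4.54 in VOID and from -0.93 to 2.03 with both fragments. Of the 6 markers 4 were called. Fcer1a was not above background on any both-fragment array, and Ms4a2 on no array of any group. The mast cell and basophil sum ran from 2.83 to 3.63 in WT and from 1.46 to 1.94 in D361E. It ran from 1.64 to 3.15 in p1-361 and from -1.04 to 2.42 in p363-549. Of the 6 markers 1 was called in WT, 2 in D361E, 1 in p1-361 and 1 in p363-549. With all arrays no member of the interferon-stimulated genes was called in these groups. The erythroid sum ran from 4.88 to 6.23 in VOID and from 3.88 to 4.48 with both fragments, with 2 markers called. In WT it ran from 3.31 to 4.28, with 1 marker called. Its lowest values in D361E, p1-361 and p363-549 were 4.25, 4.63 and 4, with 0, 1 and 0 markers called. The sum of the 11 blood cell markers ran from 7.2 to 7.46 in VOID and from 6.48 to 6.86 with both fragments, with 1 called. Of the monocyte and macrophage markers 2 were called with both fragments, and 1 in each of WT, D361E, p1-361 and p363-549. Of the T and NK cell markers 1 was called, with both fragments. The part of these markers in the results was not tested.

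**Figure D2:**
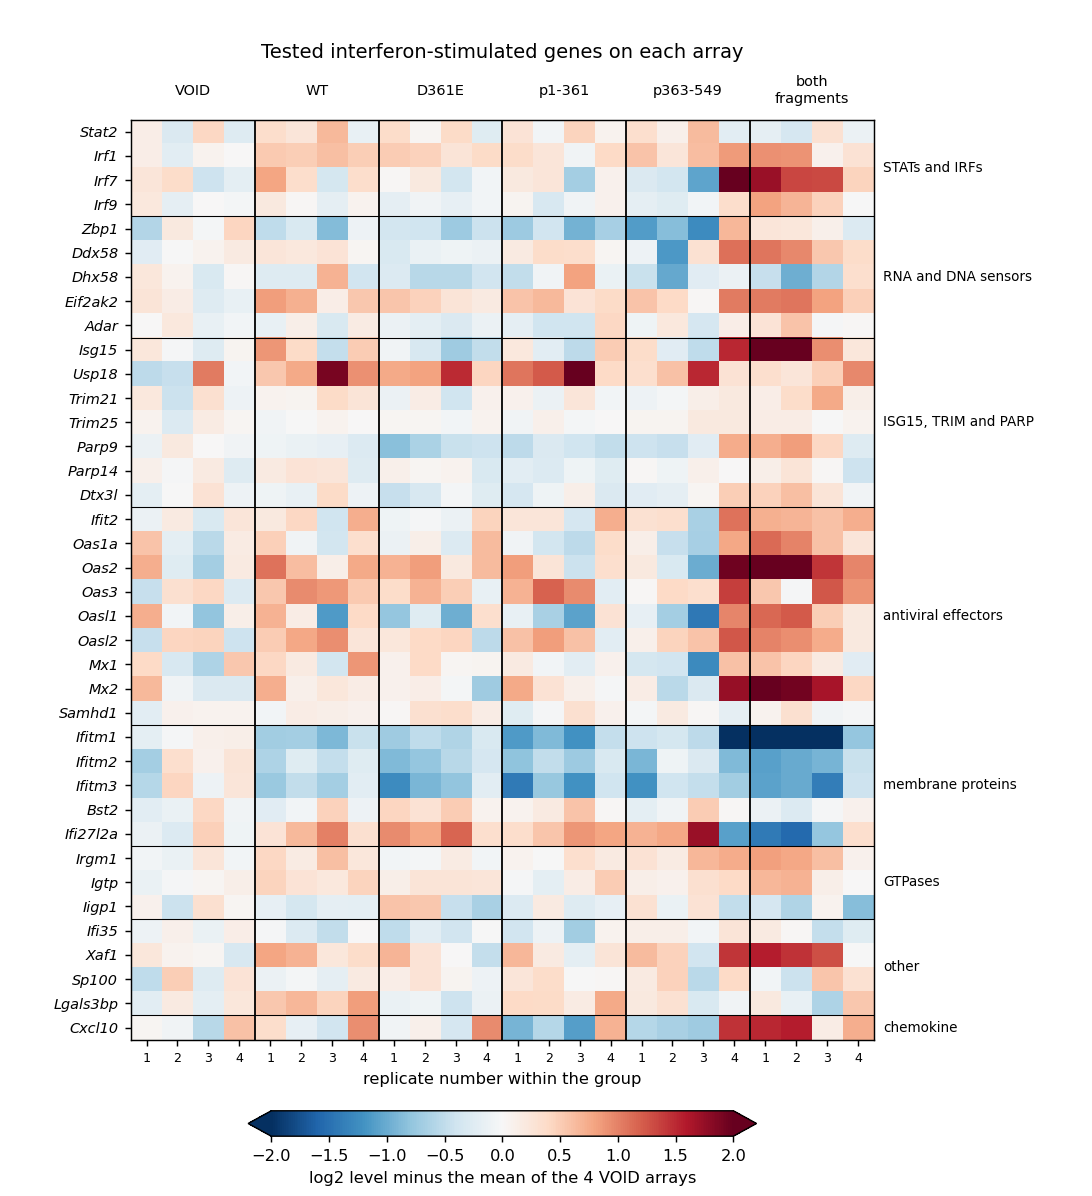
Level of each of the 38 tested members on each of the 24 arrays, as the difference in log2 level from the mean of the 4 VOID arrays (colour, cut at -2 and 2), with genes grouped by role and arrays by group and replicate number. Ifitm1 is low and Isg15, Oas2 and Mx2 are high on replicates 1 to 3 of both fragments and on replicate 4 of p363-549.

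The 7 calls did not all rest on the same arrays. Leaving out replicate 1 or replicate 2 of both fragments, or replicate 4 of VOID, left 1 member called. That is 2.63% of the members, where 2.20%, 2.03% and 2.94% of all genes were called, so the shares were close. Leaving out replicate 2 or replicate 3 of VOID left 2 (5.26%), where 2.91% and 2.88% of all genes were called. Without replicate 3 of both fragments 4 members were called, not all of them among the 7, where 4.10% of all genes were. Mx2, Ifitm2, Ifitm3 and Irgm1 lost their calls there. Leaving out replicate 4 of p363-549 or replicate 4 of both fragments raised the number to 11, where 6.43% and 7.02% of all genes were called. Ifitm1 was called in every one of these. The arrays lay on 6 slides that each held several groups, and 2 slides held an array of both fragments beside a VOID array. Within those 2 slides the difference was -3.30 and -3.18 for Ifitm1, 1.93 and 2.29 for Mx2, 1.25 and 2.60 for Oas2, 0.95 and 0.90 for Eif2ak2, and 0.65 and 0.97 for Irgm1. For Ifitm2 it was -1.20 and -1.42, and for Ifitm3 -1.63 and -1.51. Each is a difference of 1 array from 1 other, with no test. With slide as a fixed block 3 members were called, namely Eif2ak2, Mx2 and Ifitm1, where 2.74% of all genes were. The samples also carry consecutive numbers, and each run of 6 holds 1 sample of every group, which makes 4 sets that the labels do not call batches. With these sets as a fixed block 14 members were called, where 16.1% of all genes were, against 4.46% without the block. They were the 7 above and Irf1, Irf9, Isg15, Ifit2, Oas1a, Xaf1 and Cxcl10, all higher, with limma adjusted p values from 0.0149 (Ifit2) to 0.0432 (Irf9). Below, a member that did not pass is one not called by the fit without a block.

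The membrane proteins held the largest fall. Ifitm1, Ifitm2 and Ifitm3 are small proteins of the cell and endosome membranes that hinder the entry of enveloped viruses. The Ifitm1 probe, at chr7:148155659-148155718 on mm9 (plus strand), read 6.91, 7.07, 7.2 and 7.22 on the VOID arrays. With both fragments it read 3.89, 4.12 and 3.92 on replicates 1 to 3 and 6.32 on replicate 4. All 4 arrays of both fragments lay below every VOID array, and replicate 4 stood near the other groups. The change was -2.54 ± 0.47 (SE, n = 4 against 4), with a limma adjusted p of 0.00257, and -3.12 ± 0.14 without the 3 arrays (adjusted p 1.15e-11). A second probe under this name is placed on chromosome 8 in the files, away from the gene, and is not read here. In p363-549 the first probe read 6.69, 6.75 and 6.58 on replicates 1 to 3 and 4.28 on replicate 4. That last array stood with the low arrays of both fragments. WT read 6.40, 6.42, 6.20 and 6.65, and D361E 6.39, 6.59, 6.5 and 6.79. The p1-361 arrays read 5.97, 6.22, 5.89 and 6.62. Every array of these 5 groups thus lay below the lowest VOID array. Ifitm1 was the only member called in the test for any difference among the 6 groups (adjusted p 0.0324, where 2.84% of all genes were called). That call was lost without any 1 of the 4 VOID arrays, replicates 1 to 3 of both fragments, replicate 2 of WT, or replicate 2 or 3 of D361E. This test called 16 members without the 3 arrays (9.86% of all genes), and 8 without replicate 4 of p363-549 or of both fragments alone. For the fits without a single array the share of all genes was not taken.

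Ifitm2 and Ifitm3 also fell. The Ifitm2 probe (chr7:148140881-148140940 on mm9, minus strand) read 3.33, 4.35, 4.09 and 4.27 in VOID and 2.93, 3.00, 3.08 and 3.57 with both fragments. The groups overlapped through VOID replicate 1 and replicate 4 of both fragments. The change was -0.87 ± 0.22 (n = 4 against 4, limma adjusted p 0.0286) and -1.01 ± 0.23 without the 3 arrays. Ifitm3 (chr7:148195591-148195650 on mm9, minus strand) read 3.03, 4.04, 3.50 and 3.85 in VOID and 2.53, 2.60, 2.22 and 3.19 with both fragments, again with overlap. Its change was -0.97 ± 0.27 (n = 4 against 4, limma adjusted p 0.0431) and -1.15 ± 0.27 without the 3 arrays. In WT, D361E, p1-361 and p363-549 the Ifitm2 difference from VOID was -0.39, -0.64, -0.59 and -0.55, each ± 0.22. For Ifitm3 it was -0.53, -0.79, -0.94 and -0.69, each ± 0.27. None of these passed with all arrays, and neither did both fragments against WT (-0.48 ± 0.22 and -0.44 ± 0.27). Ifitm2 and Ifitm3 are close relatives, and how far their probes hold each other's RNA was not tested. Ifi27l2a, a small hydrophobic protein of the interferon response, read 0.06, -0.11, 0.65 and 0.08 in VOID. It read -1.25, -1.38, -0.60 and 0.51 with both fragments, and -0.91 on p363-549 replicate 4 against 0.86 to 1.90 on the other arrays of that group. With all arrays its change of -0.85 ± 0.43 did not pass, and without the 3 arrays it fell by 1.25 on the log2 scale (limma adjusted p 0.00665). Bst2, or tetherin, which holds budding virions at the cell surface, had a change of -0.09 ± 0.18 and a mean level between 3.39 and 3.80 in every group.

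The antiviral effectors held the largest rise. The OAS proteins make short 2′-5′ linked oligoadenylates that turn on the nuclease RNase L, and the Mx proteins are GTPases that trap viral particles. Of 14 effectors 9 were tested, 2 rose with both fragments, and the median change of the 9 was 0.71. The Oas2 probe (chr5:121180343-121180402 on mm9, minus strand) read 0.16, -0.81, -1.25 and -0.39 in VOID. With both fragments it read 1.79, 1.6, 0.86 and 0.41, all above every VOID array. The change was 1.74 ± 0.46 (n = 4 against 4, limma adjusted p 0.0314) and 1.99 ± 0.36 without the 3 arrays. On p363-549 it read -0.37, -0.88 and -1.57 on replicates 1 to 3 and 1.37 on replicate 4.

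Mx2 (chr16:97782327-97782386 on mm9, plus strand) read -2.57, -3.29, -3.50 and -3.50 in VOID. With both fragments it read -1.0, -1.29 and -1.56 on replicates 1 to 3 and -2.80 on replicate 4, and this last array lay within the VOID range. The change was 1.55 ± 0.41 (n = 4 against 4, limma adjusted p 0.03) and 1.93 ± 0.26 without the 3 arrays. Replicate 4 of p363-549 read -1.47, among the arrays of both fragments, and the other 3 arrays of that group read -3.07, -3.75 and -3.50. Mx1, which sits beside Mx2 on chromosome 16, read 0.19, -0.54, -0.83 and 0.32 in VOID and 0.35, 0.22, -0.03 and -0.44 with both fragments. Its change of 0.24 ± 0.32 did not pass, and its groups overlapped.

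The other OAS genes had positive differences that did not pass with all arrays. Oas1a, whose promoter is printed above, read 3.58, 2.81, 2.47 and 3.18 in VOID and 4.14, 4.01, 3.59 and 3.26 with both fragments. The change was 0.74 ± 0.31 with a limma adjusted p of 0.199, and 0.91 ± 0.28 with an adjusted p of 0.0485 without the 3 arrays. The brightest Oas1a probe also lists an Oas1g transcript, and a second probe that lists Oas1a alone gave a difference of 0.71. Oasl2, an OAS-like protein, had a change of 0.71 ± 0.29 and was called without the 3 arrays (0.88 ± 0.26, limma adjusted p 0.0357). Oasl1 (0.77 ± 0.47), Oas3 (0.66 ± 0.32) and Ifit2 (0.68 ± 0.29), which binds viral RNA, passed neither with all arrays nor without the 3. Samhd1, which lowers the supply of DNA building blocks to viruses, had a change of 0.07 ± 0.13.

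**Figure D3:**
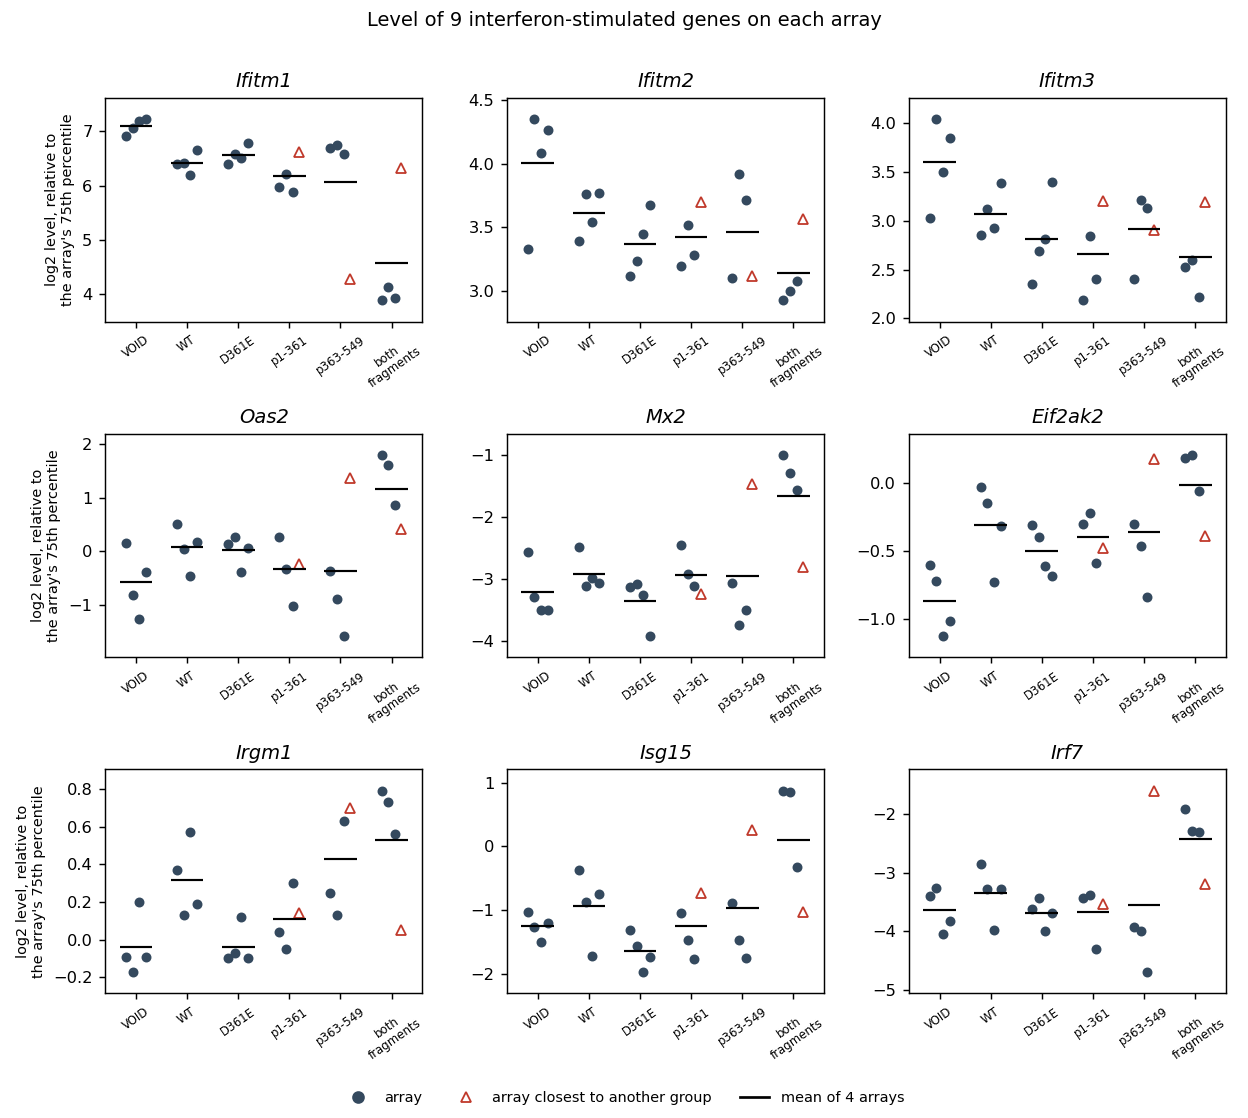
Log2 level of 9 members on every array by group, with 1 point per array and a bar at the mean of 4 arrays, and with the 3 arrays closest to another group drawn as open red triangles. For Ifitm1, Oas2, Mx2, Isg15 and Irf7 the triangle of p363-549 lies apart from the 3 points of its group, with Ifitm1 at 4.28 on that array.

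Among the 5 tested sensors, Eif2ak2 rose. It codes for PKR, a kinase that binds double-stranded RNA and halts translation. Its probe (chr17:79252168-79252227 on mm9, minus strand) read -0.60, -0.72, -1.12 and -1.01 in VOID and 0.18, 0.20, -0.06 and -0.39 with both fragments, with no overlap. The change was 0.85 ± 0.20 (n = 4 against 4, limma adjusted p 0.0148) and 0.97 ± 0.18 without the 3 arrays. WT read -0.03, -0.15, -0.73 and -0.32, of which 3 arrays lay above every VOID array. Its difference of 0.55 ± 0.20 from VOID did not pass. Nor did those of D361E, p1-361 and p363-549, at 0.36, 0.46 and 0.50, each ± 0.20. Both fragments against WT gave 0.29 ± 0.20 (limma adjusted p 0.525). Ddx58, the RNA sensor RIG-I, read 0.74, 0.95, 1.03 and 1.14 in VOID and 2.03, 1.92, 1.5 and 1.33 with both fragments, also with no overlap. The change of 0.73 ± 0.29 did not pass with all arrays (limma adjusted p 0.165) and was 0.85 ± 0.23 without the 3 (adjusted p 0.0237), and a second, dimmer probe gave 0.40. Dhx58, or LGP2, a relative of RIG-I, had a change of -0.42 ± 0.29, and of -0.68 ± 0.29 without the 3 arrays (limma adjusted p 0.166), where its arrays lay below every VOID array. Adar, which edits adenosine in double-stranded RNA, had 2 probes that disagreed, with differences of 0.21 and 0.90. Zbp1, a sensor of Z-form nucleic acid, had a change of 0.07 ± 0.30 and was above background on 1 of 4 arrays of p363-549, on 2 of p1-361, on 3 of WT and on all 4 of the other groups.

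The transcription factors of the response did not pass with all arrays, and 3 of 4 did without the 3 arrays. Irf7, the factor that amplifies type I interferon, read -3.39, -3.26, -4.04 and -3.82 in VOID and -1.90, -2.29, -2.30 and -3.19 with both fragments. Its arrays did not overlap, yet the change of 1.21 ± 0.45 had a limma adjusted p of 0.142. The highest Irf7 level of any array, -1.6, was on p363-549 replicate 4, whose group otherwise read -3.92, -4.00 and -4.69. Without the 3 arrays the change was 1.46 ± 0.28 (limma adjusted p 0.00189). Irf9, the DNA-binding part of the ISRE-binding complex, read 0.62, 0.24, 0.42 and 0.38 in VOID and 1.22, 1.10, 0.88 and 0.40 with both fragments. Its change was 0.49 ± 0.16 (limma adjusted p 0.0975) and 0.65 ± 0.13 without the 3 arrays (adjusted p 0.00256). Irf1, a factor of the interferon gamma response with a known kB site, read 0.35, 0.02, 0.29 and 0.24 in VOID and 1.14, 1.12, 0.31 and 0.52 with both fragments, so that replicates 1 and 2 stood above the rest. The change of 0.55 ± 0.17 (limma adjusted p 0.07) was 0.63 ± 0.17 without the 3 arrays (adjusted p 0.0261). Stat2 had a change of -0.08 ± 0.21.

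Isg15, the ubiquitin-like protein itself, had the largest difference among the 7 tested modifiers at 1.35 ± 0.41. It read -1.03, -1.27, -1.51 and -1.20 in VOID and 0.87, 0.86, -0.32 and -1.03 with both fragments. Replicates 1 to 3 of both fragments lay above VOID, and replicate 4 was level with the highest VOID array. This difference did not pass (limma adjusted p 0.0685), and without the 3 arrays it was 1.72 ± 0.32 (adjusted p 0.00137). A second, dimmer probe gave a difference of 1.51. Parp9, a partner of the ubiquitin ligase Dtx3l, read -0.77, -0.46, -0.65 and -0.72 in VOID and 0.08, 0.19, -0.23 and -0.91 with both fragments. It passed without the 3 arrays (0.66 ± 0.13, limma adjusted p 0.0027) and not with them (0.43 ± 0.23). Usp18, the protease that removes ISG15 and restrains the interferon receptor, had a change of 0.50 ± 0.38. The ligases Trim21 (0.34 ± 0.17) and Trim25 (0.09 ± 0.10), Dtx3l (0.31 ± 0.18) and Parp14 (0.00 ± 0.15) passed neither with all arrays nor without the 3.

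The GTPase Irgm1, which guards against bacteria inside vacuoles, rose. Its probe (chr11:48679069-48679128 on mm9, minus strand) read -0.09, -0.17, 0.20 and -0.09 in VOID and 0.79, 0.73, 0.56 and 0.05 with both fragments. Replicate 4 of both fragments lay within the VOID range. The change was 0.57 ± 0.16 (n = 4 against 4, limma adjusted p 0.0492) and 0.73 ± 0.15 without the 3 arrays, and a second probe gave 0.61. Its call was lost in 26 of the 36 settings tried. In WT, D361E, p1-361 and p363-549 the Irgm1 difference from VOID was 0.36, 0.00, 0.15 and 0.47, each ± 0.16, and did not pass. Both fragments against WT gave 0.21 ± 0.16 (limma adjusted p 0.574). Igtp, a GTPase of the same family, had a change of 0.37 ± 0.16 and passed without the 3 arrays (0.49 ± 0.14, limma adjusted p 0.0319), and Iigp1 (-0.43 ± 0.26) passed in neither of these fits. Xaf1, which promotes apoptosis, read -1.65, -1.80, -1.84 and -2.20 in VOID and -0.31, -0.42, -0.58 and -1.88 with both fragments, so that replicates 1 to 3 lay above VOID and replicate 4 within it. The change of 1.08 ± 0.34 did not pass (limma adjusted p 0.0788) and was 1.44 ± 0.27 without the 3 arrays (adjusted p 0.00161). Cxcl10, a T cell chemokine with known ISRE and kB control, read -1.65, -1.77, -2.25 and -1.10 in VOID and -0.18, -0.13, -1.54 and -0.96 with both fragments. Its change of 0.99 ± 0.48 did not pass. The other 3 tested genes, Ifi35, Sp100 and Lgals3bp, had changes of -0.13 ± 0.17, 0.09 ± 0.24 and -0.01 ± 0.20.

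**Figure D4:**
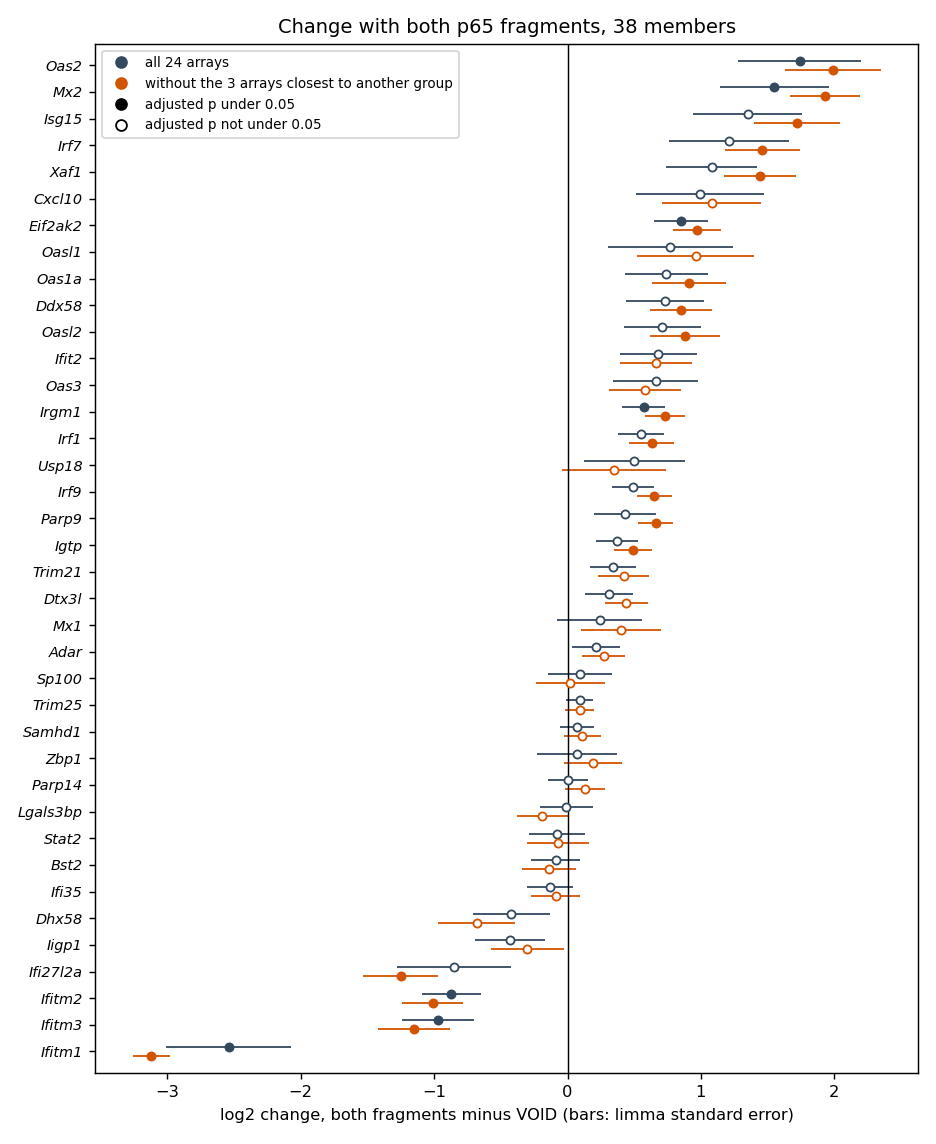
Log2 change with both fragments against VOID for the 38 tested members, with bars for the limma standard error, for all 24 arrays (dark) and without the 3 arrays closest to another group (orange). Filled points have an adjusted p under 0.05, 7 with all arrays and 18 without the 3, and Ifitm1 lies lowest in both at -2.54 and -3.12.

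Of the 8 members that were not tested, Rtp4 and Ifit1 were above background on 5 arrays each, of which they shared 4. Rtp4, a chaperone of membrane receptors, was well above background on 5 of 24 arrays. Its levels were -2.20, -2.06 and -2.83 on replicates 1 to 3 of both fragments, -2.10 on p363-549 replicate 4 and -1.72 on p1-361 replicate 2. On the other 19 arrays it lay between -7.45 and -6.30 and was not well above background. Ifit1, which binds viral RNA, was above background on 5 arrays, at -3.50, -3.29 and -4.46 on replicates 1 to 3 of both fragments, -4.30 on p363-549 replicate 4 and -3.27 on WT replicate 3. Ifih1, the RNA sensor MDA5, was above background only on p1-361 replicate 2 (-2.62), and Ifi44 only on D361E replicate 2 (-1.96). Ifit3 was above background on 2 arrays, and Oas1g and Cmpk2, a mitochondrial kinase, on 4 each. Rsad2, or viperin, an enzyme that makes a chain-ending nucleotide, was on none.

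**Figure D5:**
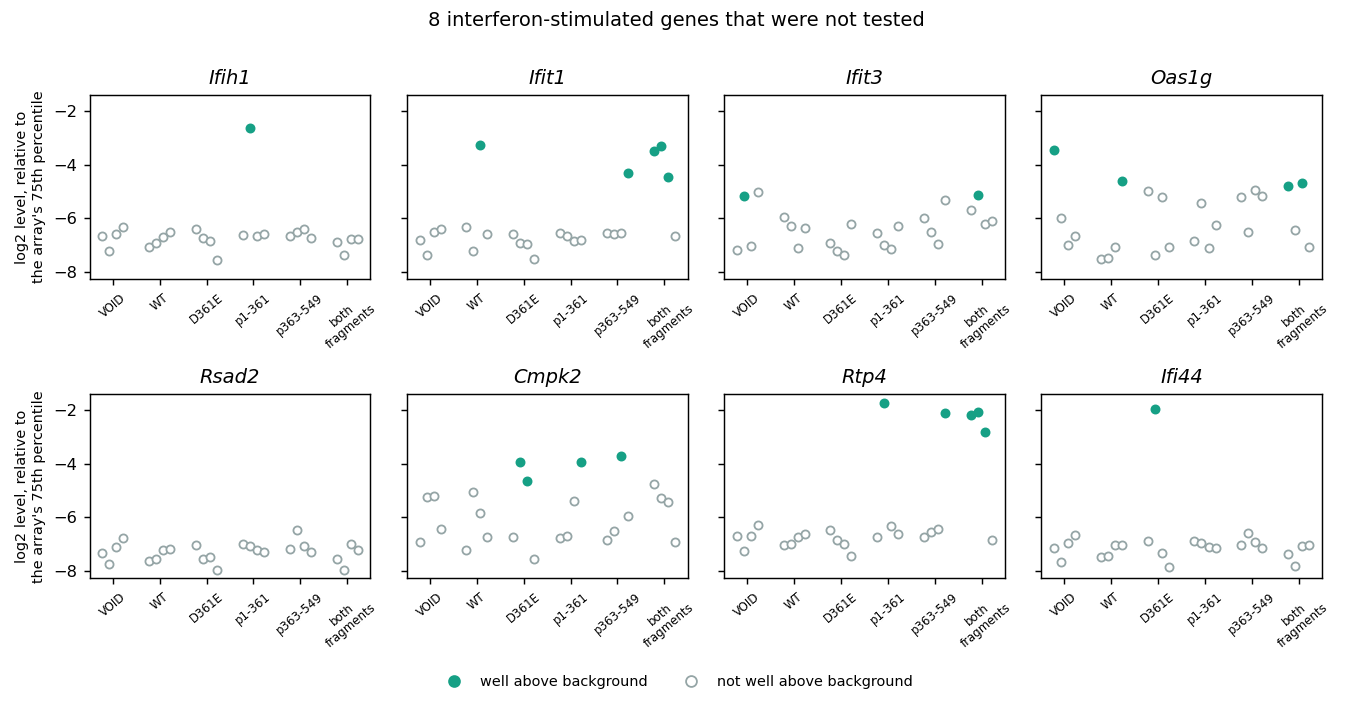
Log2 level of the 8 members without a test on every array by group, with filled green points where the spot was well above background and open grey points where it was not. Rtp4 and Ifit1 are filled on replicates 1 to 3 of both fragments and on 1 array of p363-549, and Rsad2 is filled on none.

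Full-length p65, its D361E form and each fragment alone were each compared with the same 4 VOID arrays, so their differences are not independent. limma called 0 of 38 members in each of these 4 comparisons, where 0.485% (WT), 0.657% (D361E), 0.717% (p1-361) and 0.584% (p363-549) of all genes were called. At an unadjusted p under 0.05 there were 8 members in WT (5.67% of all genes), 5 in D361E (6.30%), 6 in p1-361 (7.84%) and 7 in p363-549 (6.83%), out of 38 each. The median change of the members was 0.19 in WT, with 27 of 38 above 0, where the median of all genes was -0.04 and 42.7% lay above 0. In D361E it was 0.00, in p1-361 0.03 and in p363-549 0.06, where the medians of all genes were -0.02, -0.01 and 0.03, and without the 3 arrays it was 0.01 in p1-361 and -0.01 in p363-549. With all arrays the largest positive difference in each of the 4 was that of Usp18. It read 0.49, 0.54, 2.05 and 0.95 in VOID and 1.54, 1.76, 2.90 and 1.92 in WT, with overlap through VOID replicate 3, for a difference of 1.02 ± 0.38 (limma adjusted p 0.545). With D361E the Usp18 difference was 0.87 ± 0.38, with p1-361 1.17 ± 0.38 and with p363-549 0.68 ± 0.38. Without the 3 arrays it was 1.43 ± 0.39 with p1-361 (limma adjusted p 0.0626) and 0.82 ± 0.39 with p363-549. In that fit the largest positive difference in p363-549 was that of Ifi27l2a, at 1.06 ± 0.28 (limma adjusted p 0.103) against 0.53 with all arrays, and the 3 arrays left lay above every VOID array. The Usp18 level on replicate 3 was the highest of its group in all groups except both fragments. With the 4 sets of consecutive samples as a fixed block, Usp18 passed in WT (1.02 ± 0.24, limma adjusted p 0.0402) and p1-361 (1.17 ± 0.24, adjusted p 0.0125). Lgals3bp also passed there in WT by its brightest probe (0.62 ± 0.14, limma adjusted p 0.0355), and a second probe is given below. Ifitm3 passed there in D361E, p1-361 and p363-549 (-0.79, -0.94 and -0.69, each ± 0.17). In that fit 1.48%, 1.79%, 3.00% and 1.81% of all genes were called in WT, D361E, p1-361 and p363-549. With all arrays and no block, the most negative difference was that of Ifitm1 in WT (-0.68 ± 0.47) and p363-549 (-1.02 ± 0.47), and of Ifitm3 in D361E (-0.79 ± 0.27) and p1-361 (-0.94 ± 0.27). The p363-549 value moved to -0.43 ± 0.14 without the 3 arrays (limma adjusted p 0.224), where Zbp1 was the lowest member.

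A few members had no overlap with VOID in these groups without passing the test. With all arrays these were 1 higher (Irf1) and 2 lower (Parp9 and Ifitm1) in D361E, where 2.76% and 2.01% of all genes were. In p1-361 they were 1 higher (Eif2ak2) and 2 lower (Parp9 and Ifitm1), where 2.46% and 2.30% of all genes were, and in p363-549 1 higher (Irf1) and 1 lower (Ifitm1), where 1.65% of all genes were in either direction. Of 38 members 1 is 2.63% and 2 are 5.26%. Without the 3 arrays there were 5 higher and 5 lower in p1-361 (5.94% and 5.68% of all genes) and 2 higher and 4 lower in p363-549 (4.00% and 3.14%), with 3 arrays against 4. In WT these were Irf1, Oas3, Igtp and Lgals3bp, all higher, and Ifitm1, lower. That is 10.5% higher and 2.63% lower, where 2.34% and 2.44% of all genes were. Irf1 read 0.75, 0.72, 0.83 and 0.72 in WT, for a difference of 0.53 ± 0.17 (limma adjusted p 0.349). Lgals3bp, a secreted glycoprotein that binds galectins, read -0.16, 0.23, -0.15 and 0.28 in VOID and 0.59, 0.71, 0.50 and 0.89 in WT. Its difference was 0.62 ± 0.20 (limma adjusted p 0.371). A second, dimmer Lgals3bp probe, above background on all 24 arrays, gave a smaller difference of 0.26. When the 3 arrays were left out, Ifitm1 passed in WT (-0.68 ± 0.13, limma adjusted p 0.00519), D361E (-0.53 ± 0.13, adjusted p 0.0325) and p1-361 (-1.08 ± 0.14, adjusted p 8.96e-05). Parp9 passed in D361E (-0.58 ± 0.12, limma adjusted p 0.0162), Ifitm3 in p1-361 (-1.12 ± 0.27, adjusted p 0.0299) and Zbp1 in p363-549 (adjusted p 0.0167). All of these 6 calls were lower than VOID. For Zbp1 none of the 3 p363-549 arrays left was well above background, so that only a bound can be given. Its level was at least 1.44-fold lower than the VOID mean, taking on each p363-549 array the higher of the Zbp1 signal and the lowest signal of any probe well above background. Zbp1 was also called in p363-549 with replicate 4 of that group alone left out (limma adjusted p 0.0232). The WT and D361E arrays are the same in both fits, so the lower SE there came from the spread that the fit pools over all groups. In the same fit 1.27%, 1.63%, 2.67% and 0.883% of all genes were called in WT, D361E, p1-361 and p363-549.

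The constructs were then set against WT, with the 4 WT arrays shared. With all arrays limma called 0 of 38 members in D361E, p1-361, p363-549 and both fragments, where 0.0797%, 0.126%, 0.146% and 1.06% of all genes were called. At an unadjusted p under 0.05 there were 2, 1, 1 and 10 members, where 3.07%, 3.02%, 5.19% and 12.6% of all genes lay. The lowest adjusted p among the members with both fragments against WT was that of Ifitm1 (-1.85 ± 0.47, limma adjusted p 0.062). Mx2 had a difference of 1.26 ± 0.41 and Ifi27l2a one of -1.41 ± 0.43. Lgals3bp was lower on every D361E array, at -0.08, -0.04, -0.36 and -0.06, than on any WT array, with a difference of -0.81 ± 0.20 (limma adjusted p 0.226). It passed without the 3 arrays (-0.81 ± 0.18, limma adjusted p 0.0415), where 0.545% of all genes did. These values are those of the brightest Lgals3bp probe, whose differences from VOID were 0.62 in WT and -0.19 in D361E. The second probe gave 0.26 and -0.16. Both fragments against WT called 9 members without the 3 arrays, where 5.55% of all genes were called. In p1-361 and p363-549 against WT that fit called 0 of 38 members (0.697% and 0.671% of all genes), with 4 and 7 at an unadjusted p under 0.05. With both fragments, Irf7, Irf9, Isg15, Parp9, Oas2 and Mx2 were higher, by 1.18, 0.62, 1.40, 0.83, 1.34 and 1.63, and Ifitm1, Ifi27l2a and Lgals3bp lower, by -2.44, -1.81 and -0.81. Leaving out replicate 4 of p363-549 alone gave 3 calls here, and leaving out replicate 4 of both fragments alone gave 6. The share of all genes was not taken in those fits, so these counts have nothing to be set against.

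Whether the change with both fragments equals the sum of the changes with each was tested as an interaction. With all arrays limma called 0 of 38 members, where 0.213% of all genes were called, and 8 members had an unadjusted p under 0.05, where 14.3% of all genes did. The most extreme values were 1.59 ± 0.67 for Cxcl10 (limma adjusted p 0.314, and 2.59 with an adjusted p of 0.0067 without the 3 arrays) and -2.03 ± 0.61 for Ifi27l2a (adjusted p 0.24). In the fit without the 3 arrays 13 members were called, 10 higher and 3 lower than the sum, where 10.6% of all genes were called. Parp9 (1.44 ± 0.20, limma adjusted p 0.00014) and Ifi27l2a (-2.91 ± 0.41, adjusted p 0.000216) were among them, as was Ifitm1 (-1.62 ± 0.20, adjusted p 4.77e-05). Zbp1 was also called higher than the sum (limma adjusted p 9e-04), with no size given because p363-549 was below background there. Irf7, Irf9, Isg15, Oas1a, Oas2, Oasl1, Mx2 and Cxcl10 were also higher than the sum, and Usp18 was also lower. Leaving out replicate 4 of p363-549 alone gave 4 calls and leaving out replicate 4 of both fragments alone gave 2, again without a share of all genes. The both-fragment arrays enter this test and the comparison with VOID alike.

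The upstream genes of the pathway were read from a list of 50 ligands, receptors, kinases, factors, adaptors and brakes, of which 40 were tested. None of the ligands Ifna2, Ifna4, Ifnb1 and Ifng had a probe well above background on all 4 arrays of a group. The ligands Ifna1 and Ifnl3 did and were tested, with differences of 0.19 ± 0.34 and -0.26 ± 0.39 with both fragments against VOID that did not pass. With both fragments against VOID 5 of the 40 rose and 1 fell, where 1.95% and 2.51% of all genes did, and the median change was 0.13. The receptor chains Ifngr2 (0.98 ± 0.28, limma adjusted p 0.0465) and Il10rb (1.06 ± 0.30, adjusted p 0.0461) rose. Ube2l6, the enzyme that passes ISG15 to its ligases, rose by 0.58 ± 0.17 (limma adjusted p 0.0486), as did Herc6, the mouse ligase for ISG15 (0.87 ± 0.20, adjusted p 0.015). Isg20, an RNA exonuclease, rose by 1.55 ± 0.43 (limma adjusted p 0.0408). Isg20 read 4.41, 4.17 and 5.06 on replicates 1 to 3 of both fragments and Il10rb -0.42, -0.21 and 0.10. On replicate 4 they read 3.02 and -1.28, within the VOID ranges of 2.29 to 3.12 and -1.78 to -0.99. On that array Ifngr2 (1.40), Herc6 (-2.37) and, narrowly, Ube2l6 (0.29 against 0.28) lay above every VOID array. The single fall was that of Socs1, the inhibitor of JAK kinases, by -2.37 ± 0.35 (limma adjusted p 0.000319).

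For Socs1, the arrays of both fragments lay close together. It read 2.61, 3.1, 3.27 and 2.87 in VOID and 0.51, 0.69, 0.56 and 0.61 with both fragments, so that replicate 4 stood with the other 3. Its p363-549 arrays read 2.37, 2.5, 3.09 and 0.72. WT read 1.93, 2.27, 2.52 and 1.41, D361E 2.06, 1.92, 1.81 and 1.05, and p1-361 1.46, 1.6, 1.82 and 1.83. Every array of WT, D361E and p1-361 thus also lay below every VOID array. Its change without the 3 arrays was again -2.37. It was also lower with both fragments than in WT (-1.44 ± 0.35, limma adjusted p 0.0457), the only list gene called there with all arrays. Without the 3 arrays 5 of the 40 were higher and 2 lower than in WT, where 5.55% of all genes were called. They were Herc6, Il10rb, Isg20, Socs1, Socs3, Sting1 and Ube2l6. In WT, D361E, p1-361 and p363-549 against VOID limma called 0 of the 40 with all arrays, and 5, 3, 4 and 3 had an unadjusted p under 0.05, where 5.67%, 6.30%, 7.84% and 6.83% of all genes had one. Without the 3 arrays the called list genes numbered 0 in WT and p363-549, 1 in D361E (Socs1, lower) and 4 in p1-361 (Ifngr2, Isg20 and Jak1 higher, Socs1 lower), where 1.27%, 0.883%, 1.63% and 2.67% of all genes were called in WT, p363-549, D361E and p1-361. Sting1, the adaptor of DNA sensing, had a difference of 1.90 ± 0.55 with both fragments (limma adjusted p 0.0527). With the 3 arrays left out, 7 of the 40 rose and 2 fell with both fragments against VOID, where 9.58% of all genes were called. The genes added were Sting1 (2.17, limma adjusted p 0.00652), the kinase Ikbke (0.72, adjusted p 0.0219) and the inhibitor Socs3 (-0.86, adjusted p 0.00296). In the test of additivity 0 of the 40 were called with all arrays (0.213% of all genes). Without the 3 arrays 3 were higher and 4 lower than the sum, where 10.6% of all genes were called. They were Jak1, Mavs, Socs3, Sting1, Ticam1, Uba7 and Ube2l6.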

How the data were processed

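Per the labels, total RNA of 24 samples carried the Cy3 dye and was measured on one-colour arrays. Scans were read with Agilent Feature Extraction 10.7.3.1, per the file headers and the submitters' processing notes. The deposited files give a processed intensity per spot, from which the authors' software had taken the background, on a linear scale that was not yet set to a common level. The table deposited for the series is the same intensity again (largest difference 0). Spot and background intensity and quality marks of other kinds were also used. Of 44397 spots 43020 were not controls, with 39429 probes, and 27508 probes were named by RefSeq accession. Outlier spots were left out, and probes with such spots on more than 2 arrays were not used. Spots of a probe were averaged. Coordinates of probes are those of the files (mm9).

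The filter on dim probes kept 19522 probes. R 4.3.3 and limma 3.58.1 fitted a mean for every group over the 24 arrays (18 residual and 3.06 prior degrees of freedom). The 10 comparisons set each construct against VOID and WT and tested the additivity of the fragments, 2-sided, beside an F test over the 6 groups. The genes named are a fixed set of 18 members, every member called in a comparison, the largest rise and fall against VOID, the 6 members of highest and of lowest level, and called pathway genes. The members, the lists and these rules were chosen with earlier results of these data known. Alternatives changed the background correction (normexp, offset 50), the normalization (quantile, or the 75th percentile over detected probes), the source of values, the filter, the blocks (slide, sets of samples), the arrays in the fit and the choice of probe. The fit was tested on simulated data.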

Additional observations from a re-analysis of the deposited data

Results flagged for a closer look

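In 114 groups of 4 arrays, the 6 groups of each of 19 members, 4 held an array far from the other 3 by Dixon's test. Chance alone gives about 1 such group in 20. Ifitm1 accounts for 2 of them. On p363-549 replicate 4 it read 4.28, where the other 3 arrays read 6.58 to 6.75. On p1-361+p363-549 replicate 4 it read 6.32, where the others read 3.89 to 4.12. Cxcl10 read -0.25 on p363-549 replicate 4, where the other 3 arrays of the group read -2.41 to -2.27. These 3 lie on 2 of the 3 arrays that were closest to another group. Mx1 read 0.18 on D361E replicate 2, where the others read -0.18 to -0.13.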

How the results depend on the processing

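With both fragments against VOID, where 7 members and 4.46% of all genes were called, quantile normalization and the series table gave the same 7 calls. The mean of a gene's probes also gave 7, but Irgm1 lost its call there and a member outside the 7 was called. The 75th percentile over detected probes, probes above background on all 24 arrays and slide as a random block gave 6 each. In these 4.32%, 3.61% and 4.22% of all genes were called. Normexp background correction gave 2 (1.41% of all genes), no filter on dim probes 2 of 46 (1.44% of 30342 genes), slide as a fixed block 3 (2.74%), and only the arrays compared 1, which is 2.63% of the members where 1.96% of all genes were called. Leaving out 1 array at a time gave 1 to 11, where 2.03% to 7.02% of all genes were called. The F test gave 0 members with no filter on dim probes and 2 with slide as a fixed block, and 0 to 8 with 1 array left out. With a block for the 4 sets of consecutive samples, members called were 9 in the F test, 2 in WT, 1 in D361E, 2 in p1-361, 1 in p363-549 and 14 with both fragments against VOID (16.1% of all genes), 1 in D361E and 4 with both fragments against WT, and 4 for additivity. Leaving out the 3 arrays closest to another group gave 16 in the F test, 1 in WT, 2 in D361E, 2 in p1-361, 1 in p363-549 and 18 with both fragments against VOID, 1 in D361E and 9 with both fragments against WT, and 13 for additivity. With 1 array left out, p363-549 against VOID gave 0 to 1, both fragments against WT 0 to 6 and additivity 0 to 4. The other comparisons against VOID and WT gave 0 calls with 1 array left out. With 1 array left out, the share of all genes was taken only for both fragments against VOID. The causes were not tested, except that fewer arrays enter when arrays are left out or only those compared are used.

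Ifitm1 kept its call with both fragments against VOID in 36 of 36 alternatives, at -3.12 to -2.31. Eif2ak2 lost it in 6, Oas2 in 8, Mx2 in 9, Ifitm2 in 10, Ifitm3 in 15 and Irgm1 in 26. No called value changed sign. The labels give the groups no shared replicate numbers, and the sets of consecutive samples were the pairing tried, as a block. Without the filter, the median of all genes with both fragments against VOID was -0.20. Signal over background limits Zbp1, above background on 18 of 24 arrays, and the 8 untested members most.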
